A study of Saccharomyces cerevisiae with 8 samples.

Results

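The 8 genes described here are intron-containing genes of the actin and tubulin cytoskeleton of *Saccharomyces cerevisiae*. They are *ACT1* (YFL039C), *COF1* (YLL050C), *PFY1* (YOR122C), *SAC6* (YDR129C), *ARP2* (YDL029W), *YSC84* (YHR016C), *TUB1* (YML085C) and *TUB3* (YML124C). They were chosen by what their proteins do and by the presence of an intron, not by a measured value, although earlier results of these data were known. They are 8 of the 297 introns for which a count of the coding sequence (CDS) of the same gene exists, and all 8 passed the filter (on average 5 or more counts in the intron and 20 or more in the CDS), which kept 255 introns. Of these, 102 lie in ribosomal protein (RP) genes and 145 in other genes outside the 8.

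Ribodepleted total RNA of strain BY4741, a haploid laboratory strain, was sequenced in 8 libraries, 1 per condition. The isobole libraries came from cultures in rich medium (YPD) with LiCl, which stresses cells by its cation and by osmolarity, and cycloheximide, which blocks translation elongation, at ratios set so that growth was inhibited by 50% in each. Point 1 held cycloheximide only, points 2 to 6 held both drugs with the share of LiCl growing, and point 7 held LiCl only. The eighth culture grew in YPD with no drug and was seeded more sparsely. All cultures shared the strain, the medium and the ribodepletion, and the labels give no batch. With 1 library per condition there is no replicate, so that intervals, counting standard errors (SE) and p-values between a pair of libraries cover counting error only, and such a test compares libraries and not conditions.

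Actin polymerises into the cortical patches that drive endocytosis and into the cables that carry cargo into the bud, and a small set of binding proteins starts, cuts, bundles and recycles the filaments. Microtubules, built of alpha- and beta-tubulin, form the mitotic spindle and position the nucleus. Most yeast genes have no intron. Where one is present it usually sits near the start of the coding sequence and is removed by the spliceosome, which pairs with the 5′ splice site and with the branch point, where the adenosine attacks the 5′ splice site, before the 3′ splice site is joined. The *ACT1* intron is a classical substrate of splicing studies in yeast.

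Each of the 8 introns interrupts the coding sequence, none lies in a 5′ untranslated region, and their coordinates are identical in the RefSeq annotation of build R64. Between 10 coding bases (*ACT1*) and 47 (*YSC84*) precede the intron. The *ACT1* intron spans chrVI:54378-54686 on the minus strand and has 309 bases. That of *COF1* is chrXII:40222-40400 on the minus strand (179 bases), that of *PFY1* chrXV:552666-552874 on the minus strand (209 bases) and that of *SAC6* chrIV:715248-715358 on the minus strand (111 bases). The *ARP2* intron, chrIV:399362-399484, is the only one on the plus strand (123 bases). The *YSC84* intron is chrVIII:138241-138408 on the minus strand (168 bases). The tubulin introns lie on chromosome XIII, both on the minus strand, at 99260 to 99375 in *TUB1* (116 bases) and at 23361 to 23658 in *TUB3* (298 bases). The median length of the 8 introns was 173.5 bases, against 111 bases in the 145 other introns outside RP genes and 404 bases in the RP introns.

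The splice signals of 5 of these introns are shown as context for the measurements, with no relation between sequence and retention tested: *ACT1* and *TUB1* did not pass the test of a trend, *COF1* has the one divergent 5′ splice site, *TUB3* had the steepest trend, and *ARP2* the shortest distance from branch point to intron end. All sequences are RefSeq, build R64, written 5′ to 3′ on the strand of the gene. The first 20 bases of the intron are given with the 5′ splice site, its first 6 bases, in capitals.
ACT1: GTATGTtctagcgcttgcac
COF1: GTATGCtaaatttcatttgt
ARP2: GTATGTtgttgatattttta
TUB1: GTATGTtcgatttgcccgtc
TUB3: GTATGTatgcgttccttttt

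The sequence GTATGT, read on the strand of the gene only, opens 7 of the 8 introns, against 158 of the 222 kept CDS introns that consist of 1 interval (71.2%). The exception is *COF1*. Around the branch point, 21 bases are given with the branch motif TACTAAC in capitals.
ACT1: tctcatgTACTAACatcgatt
COF1: tatcaatTACTAACtaattga
ARP2: ttattaaTACTAACcatctcg
TUB1: ctttcatTACTAACttcaacg
TUB3: cacagttTACTAACagtttct

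TACTAAC occurs once in each of the 8 introns, and at least once in 188 of the 222 introns (84.7%). From the branch adenosine to the intron end there were 14 bases in *ARP2*, 19 in *SAC6*, 40 in *YSC84*, 41 in *TUB1*, 43 in *ACT1*, 72 in *PFY1*, 132 in *COF1* and 139 in *TUB3*, against a median of 36 in the 222 introns (range 11 to 155). The last 20 bases of the intron are given with the 3′ splice site in capitals.
ACT1: ttgctatattatatgttTAG
COF1: aatgtgaagtttctgtgTAG
ARP2: tactaaccatctcgataTAG
TUB1: tttttgatttctctttaCAG
TUB3: atttttcttttttacaaCAG

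*ACT1*, *COF1*, *SAC6* and *ARP2* end in TAG, and the other 4 in CAG. In the 222 introns, TAG ended 116 (52.3%) and CAG 97 (43.7%). *TUB1* and *TUB3* share the 5′ splice site, the branch motif and the last 3 bases, and differ in intron length and in the distance from branch point to intron end.

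Libraries held 13693401 (point 2) to 28042336 (LiCl only) CDS counts, with counts in 6616 to 6654 genes. As a check of the strain, *LEU2* had 0 to 1, *URA3* 0 and *MET17* 0 to 2 counts per library, and *HIS3*, which BY4741 carries in part, 347 to 1266. Retention is the density of counts per base in the intron divided by that in the CDS, in percent, with 95% Clopper-Pearson intervals. CDS and intron levels are given as CPM, counts per 1000000 CDS counts after TMM (trimmed mean of M values) scaling. Any read that touched an intron by a base was counted for it, which raises the percentage of short introns more. Trends along the isobole are slopes in log2 per point over the 7 isobole libraries, fitted by edgeR's quasi-likelihood test with Benjamini-Hochberg adjustment over all 255 introns or 6498 genes. Their SE is the one implied by that test. It draws on the scatter of single libraries about a straight line, with information shared over all introns or genes.

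Along the isobole, retention rose in 6 of the 8 introns and fell in 0. *COF1*, *PFY1*, *SAC6*, *ARP2*, *YSC84* and *TUB3* passed the edgeR test, and *ACT1* and *TUB1* did not. Of all 255 introns, 64.3% rose and 0% fell. The median slope was 0.19 in the 8 introns and 0.28 over all 255. In the 145 other introns outside RP genes 57 rose (39.3%, median 0.15), and in RP introns 101 of 102 rose (median 0.48). Without the LiCl-only library, 3 of the 8 passed (*SAC6*, *ARP2* and *TUB3*). With the DESeq2 test 4 of the 8 passed, as *COF1* (DESeq2 adjusted p = 0.0522) and *YSC84* (DESeq2 adjusted p = 0.0687) did not.

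**Figure D1:**
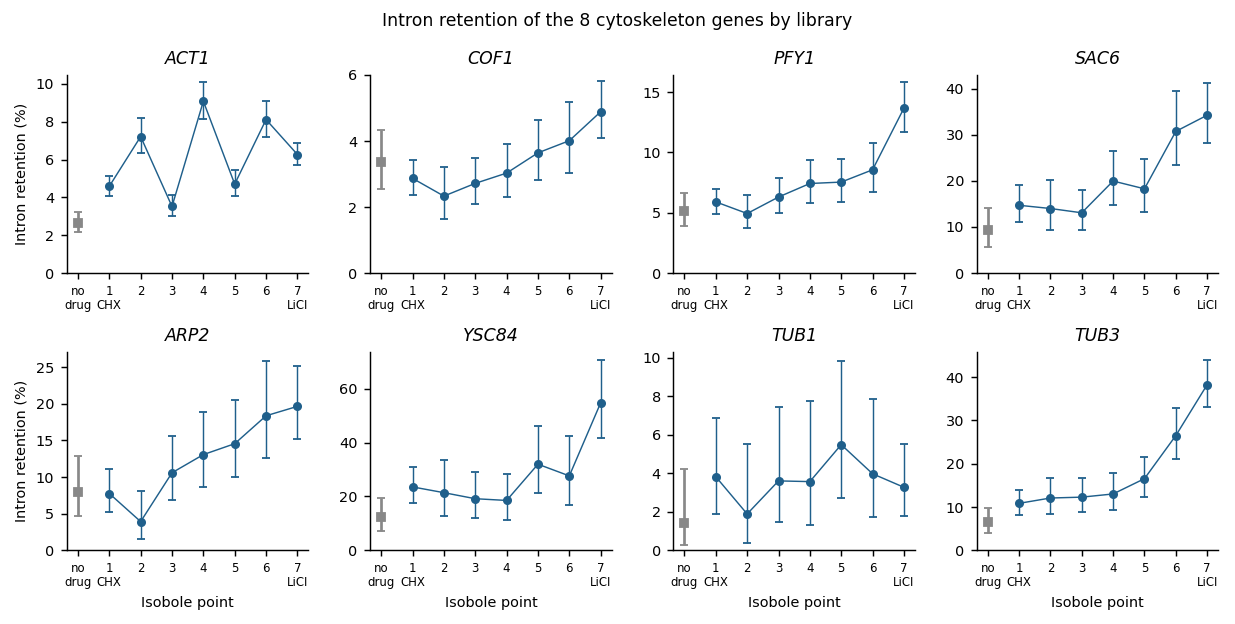
Intron retention in percent (y axis, a scale of its own in each panel) of the 8 genes in the no-drug library (grey square) and at isobole points 1 (cycloheximide only, CHX) to 7 (LiCl only) (blue circles), with 95% Clopper-Pearson intervals that cover counting error only. TUB3 climbs at every step to 38.3% in LiCl only, while ACT1 moves up and down between neighbouring points.

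Actin itself, *ACT1*, had the strongest intron signal of the 8 genes, with 102 to 436 intron counts per library. Its retention was 2.66% in no drug and 4.59%, 7.21%, 3.52%, 9.08%, 4.70%, 8.11% and 6.27% at points 1 to 7. Every isobole library lay above no drug, although the interval at point 3 (2.99% to 4.11%) overlapped that of no drug (2.16% to 3.23%). The order along the isobole was a zigzag, with points 2, 4 and 6 above both neighbours. The slope was 0.07 (SE 0.08, edgeR adjusted p = 0.418).

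Each of the 6 steps between neighbouring isobole libraries passed a two-sided Fisher's exact test on *ACT1*, adjusted over all 1530 steps of the 255 introns. The step to point 2 was 0.65 on the log2 scale (counting SE 0.12, Fisher's exact test adjusted p = 1.99e-06), the step to point 3 was -1.03 (SE 0.15, 1.95e-11) and the step to point 4 was 1.36 (SE 0.14, 8.1e-23). From there the steps were -0.95 to point 5 (SE 0.13), 0.78 to point 6 (SE 0.13) and -0.37 to point 7 (SE 0.11). The zigzag was thus larger than counting error at every point. Of all steps 27.9% passed, and only 2 of the 255 introns passed at all 6. Steps alternated in sign from an upward start in 5 introns and from a downward start in 4, and *ACT1* was the only intron that both alternated and passed at all 6.

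The zigzag lay in the intron counts. The *ACT1* intron level was 7.80 CPM in no drug and 12.5, 18.1, 9.06, 22.4, 11.96, 19.3 and 14.6 CPM at points 1 to 7, while the CDS level moved little, with 1072 CPM in no drug and 991, 917, 939, 900.4, 928, 867 and 849 CPM at points 1 to 7. No trend of the *ACT1* CDS passed (slope -0.03, SE 0.02, edgeR adjusted p = 0.291). Depth alternated as well: the libraries of points 1 to 7 had 23522386, 13693401, 17673770, 15283415, 16906936, 14588508 and 28042336 CDS counts, and points 2, 4 and 6 were each shallower than both neighbours. The part of depth, or of the single cultures, in the *ACT1* pattern was not tested.

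Among the actin-binding regulators, *COF1* encodes cofilin, which severs and depolymerises filaments. Retention of its intron was 3.36% in no drug and 2.87%, 2.33%, 2.72%, 3.03%, 3.64%, 4.01% and 4.89% at points 1 to 7. It was lowest at point 2 and climbed from there at each step, by 0.15 per point over the isobole (SE 0.06, edgeR adjusted p = 0.0324), although no single step passed. The call was lost when point 2, 3, 4, 6 or 7 was left out (edgeR adjusted p 0.0531 to 0.145).

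The *COF1* intron level had no trend that passed, with 4.44 CPM in no drug and 4.93, 2.79, 3.57, 3.70, 4.21, 3.78 and 4.41 CPM at points 1 to 7 (slope 0.01, SE 0.06, edgeR adjusted p = 0.893). The CDS level fell. It was 319 CPM in no drug and 415, 289, 317, 295, 279, 227 and 218 CPM at points 1 to 7 (slope -0.13, SE 0.03, edgeR adjusted p = 0.00668). The highest *COF1* CDS level of the 8 libraries was that of cycloheximide only. Without that library (point 1) the intron level slope was 0.11 (edgeR adjusted p = 0.167). The CDS slope was then -0.10 (edgeR adjusted p = 0.0494).

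*PFY1* encodes profilin, which binds actin monomers and feeds them to growing filament ends. Its retention was 5.14% in no drug and 5.91%, 4.94%, 6.31%, 7.43%, 7.55%, 8.57% and 13.7% at points 1 to 7. The slope was 0.20 (SE 0.05, edgeR adjusted p = 0.00475), and the only single step that passed was the last, to LiCl only (0.67 on the log2 scale, Fisher's exact test adjusted p = 0.0029). Without that library the slope was 0.13 and missed the threshold (edgeR adjusted p = 0.0761).

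As in *COF1*, the *PFY1* intron level had no trend that passed (4.44 CPM in no drug and 5.50, 4.04, 4.47, 4.66, 4.77, 4.99 and 6.32 CPM at points 1 to 7, edgeR adjusted p = 0.521). The CDS level was 157 CPM in no drug and 169.7, 149, 129, 114, 115, 106 and 84.2 CPM at points 1 to 7. Its fall was 0.15 per point on the log2 scale (slope -0.15, SE 0.02, edgeR adjusted p = 0.00178). LiCl only had the lowest *PFY1* CDS level and the highest retention.

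*SAC6* encodes fimbrin, which bundles filaments. Retention of its intron was 9.25% in no drug and 14.7%, 14.003%, 13.1%, 19.96%, 18.3%, 30.7% and 34.2% at points 1 to 7. The slope was 0.23 (SE 0.06, edgeR adjusted p = 0.00419), and the values fell into a low set at points 1 to 3 and a high set at points 6 and 7, with the step to point 6 past the threshold (0.74 on the log2 scale, Fisher's exact test adjusted p = 0.0382).

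Here the intron level rose too. It was 1.61 CPM in no drug and 2.22, 2.13, 2.15, 3.13, 2.66, 3.97 and 3.74 CPM at points 1 to 7 (slope 0.16, SE 0.06, edgeR adjusted p = 0.0305), from 21 to 112 intron counts per library. This call was lost with DESeq2 (adjusted p = 0.0609) and without point 2, 3, 6 or 7. The CDS level was 302 CPM in no drug and 263, 264, 286, 272, 253, 224 and 190.1 CPM at points 1 to 7 (slope -0.07, SE 0.03, edgeR adjusted p = 0.0735, DESeq2 adjusted p = 0.043).

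*ARP2* encodes a subunit of the Arp2/3 complex, which nucleates branched filaments in patches. Retention of its intron was 8.003% in no drug and 7.75%, 3.92%, 10.6%, 13.1%, 14.6%, 18.4% and 19.6% at points 1 to 7. The value at point 2 rests on 7 intron counts, and from there every step was upward. The slope was 0.28 (SE 0.07, edgeR adjusted p = 0.00185), the steepest after *TUB3*, and no single step passed.

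The *ARP2* intron level rose, with 1.30 CPM in no drug and 1.17, 0.514, 1.47, 1.79, 2.04, 2.11 and 2.17 CPM at points 1 to 7 (slope 0.21, SE 0.07, edgeR adjusted p = 0.0163). Without point 2 (edgeR adjusted p = 0.0616) or point 7 (edgeR adjusted p = 0.0584) it missed the threshold. The CDS level was 155 CPM in no drug and 145, 125, 133, 131, 134, 109.9 and 106 CPM at points 1 to 7 (slope -0.06, edgeR adjusted p = 0.0769). Cycloheximide only and no drug had nearly the same *ARP2* retention.

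*YSC84* encodes an actin-binding protein of the endocytic patch and had the highest retention of the 8 genes in 6 of the 8 libraries, with *SAC6* above it at points 4 and 6. It was 12.2% in no drug and 23.6%, 21.4%, 19.2%, 18.5%, 31.999%, 27.7% and 54.8% at points 1 to 7. In LiCl only the interval ran from 41.9% to 70.6%, and in no drug from 7.08% to 19.6%. The slope was 0.19 (SE 0.07, edgeR adjusted p = 0.0187) and rested on the LiCl-only library, without which it was 0.07 (edgeR adjusted p = 0.484).

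Only 17 to 64 *YSC84* intron reads per library were counted, and the intron level had no trend that passed (1.30 CPM in no drug and 2.06, 1.39, 1.25, 1.34, 1.80, 1.34 and 2.14 CPM at points 1 to 7, slope 0.02, edgeR adjusted p = 0.794). Its CDS level showed the steepest fall of the 8 genes. It was 89.2 CPM in no drug and 73.3, 54.5, 54.4, 60.5, 47.0, 40.7 and 32.7 CPM at points 1 to 7 (slope -0.16, SE 0.03, edgeR adjusted p = 0.00443).

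Both alpha-tubulin genes of yeast carry an intron. *TUB1*, the major gene, had 3 to 14 intron counts per library, the fewest of the 8. Retention of its intron was 1.44%, with an interval of 0.296% to 4.21%, in no drug and 3.82%, 1.89%, 3.61%, 3.57%, 5.49%, 3.98% and 3.28% at points 1 to 7. At this depth no trend was detectable (slope 0.03, SE 0.09, edgeR adjusted p = 0.828), and without point 2 the slope was -0.01. The CDS level was 185 CPM in no drug and 135, 135, 127, 124, 144, 149 and 165 CPM at points 1 to 7 (slope 0.05, edgeR adjusted p = 0.117).

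*TUB3*, the minor gene, encodes a nearly interchangeable alpha-tubulin. Its retention was 6.45% in no drug and 10.8%, 12.1%, 12.3%, 13.02%, 16.6%, 26.5% and 38.3% at points 1 to 7. All 6 steps were upward, and the last ones, to point 6 (0.67 on the log2 scale, Fisher's exact test adjusted p = 0.0299) and to point 7 (0.52, Fisher's exact test adjusted p = 0.0193), passed. The slope of 0.30 was the steepest of the 8 (SE 0.06, edgeR adjusted p = 0.000258).

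The rise lay in the *TUB3* intron counts. The intron level was 1.68 CPM in no drug and 2.43, 2.64, 2.43, 2.49, 3.41, 5.57 and 7.45 CPM at points 1 to 7 (slope 0.28, SE 0.06, edgeR adjusted p = 0.00108). Without LiCl only it narrowly missed the threshold (edgeR adjusted p = 0.0545). The CDS level was 117 CPM in no drug and 100.4, 98.2, 89.0, 85.8, 92.4, 94.3 and 87.5 CPM at points 1 to 7, with no trend that passed (slope -0.02, edgeR adjusted p = 0.435).

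*TUB3* is the only one of the 8 genes that another annotated gene overlaps. The antisense RNA gene YNCM0001W of the neighbouring *PHO84*, at chrXIII:23564-26578 on the plus strand, covers 95 of the 298 bases of the *TUB3* intron. Counting was not set to use strand, so reads of the pair cannot be told apart there. The CDS level of *PHO84*, a phosphate transporter gene that the antisense RNA spans, was 281 CPM in no drug and 574, 838, 712, 592, 628, 628 and 269.7 CPM at points 1 to 7, and these counts mix both strands. The *PHO84* level was lowest in LiCl only, where the *TUB3* intron level was highest. It was next lowest in no drug, where the *TUB3* intron level was lowest. The part of antisense reads in the *TUB3* intron count was not tested.

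Reads of the alpha-tubulin pair can be told apart. None of the 9687 windows of 50 bases, the read length, in the CDS and introns of the 8 genes occurs elsewhere in the genome, and allowing 2 mismatches 42 of 1295 *TUB1* CDS windows (3.24%) matched *TUB3*. The *TUB1* share of the CDS counts of the pair was 61.2% in no drug and 57.3%, 57.9%, 58.8%, 59.1%, 60.9%, 61.3% and 65.4% at points 1 to 7. It was lowest in cycloheximide only and highest in LiCl only. Retention was higher in *TUB3* than in *TUB1* in each library. The difference was 11.7-fold in LiCl only, on 14 *TUB1* intron counts, and 4.49-fold in no drug, on 3. In no drug the intervals of *TUB1* (0.296% to 4.21%) and *TUB3* (4.03% to 9.80%) overlapped.

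The intron level rose in 3 of the 8 genes (*SAC6*, *ARP2* and *TUB3*) and fell in 0, against 52.5% of the 255 introns that rose and 1.57% that fell. The median slope was 0.07 in the 8 genes and 0.19 in all. Without point 2 the count was 1, and without LiCl only it was 0, with no share of all introns given for these fits. The CDS level fell in 3 of the 8 genes (*COF1*, *PFY1* and *YSC84*) and rose in 0, against 15.1% of the 6498 genes that fell and 16.2% that rose. With DESeq2 the CDS level of *SAC6* fell as well, so that 4 of the 8 passed. The 15.1% is the edgeR share, and no share of all genes is given for DESeq2. The DESeq2 count thus has no background of its own.

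**Figure D2:**
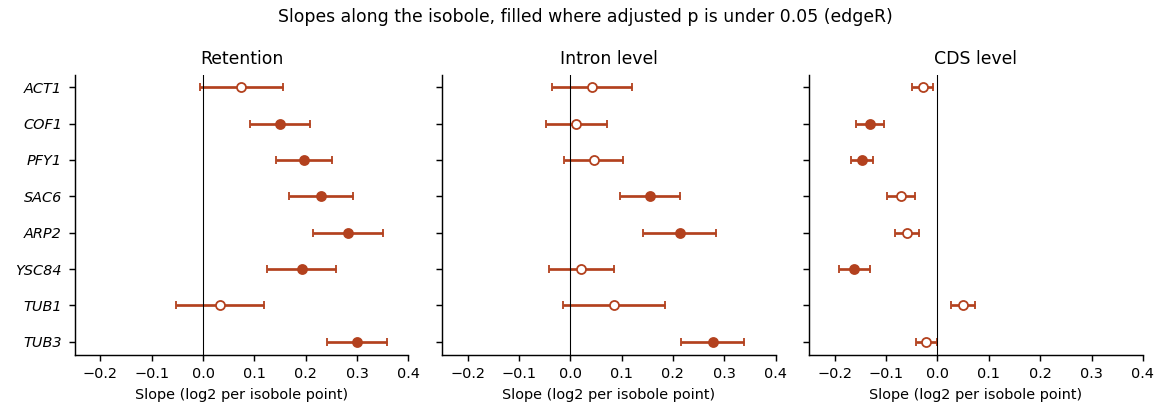
Slopes along the isobole (x axis, log2 per isobole point) of retention, intron level and CDS level for the 8 genes, with the SE implied by the edgeR test as bars. Filled circles passed an adjusted p of 0.05, as 6 genes did for retention, 3 for the intron level and 3 for the CDS level.

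LiCl only against no drug asks how retention differs under this drug alone. Retention was higher in LiCl only in all 8 introns, as it was in 235 of all 255. Of the 8, 7 passed a two-sided Fisher's exact test adjusted over the 255 introns. Of all introns, 67.5% passed as higher and 1.96% as lower. The largest differences were those of *TUB3* (2.54 on the log2 scale, SE 0.32, Fisher's exact test adjusted p = 5.13e-22), *YSC84* (2.14, SE 0.39, 4.56e-09) and *SAC6* (1.86, SE 0.34, 1.4e-09). *PFY1* differed by 1.40 (SE 0.22), *ARP2* by 1.27 (SE 0.39), *ACT1* by 1.23 (SE 0.16) and *COF1* by 0.53 (SE 0.23, Fisher's exact test adjusted p = 0.0297). *TUB1*, at 1.02 (SE 0.86), did not pass (Fisher's exact test adjusted p = 0.36).

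The median difference between LiCl only and no drug was 1.33 in the 8 introns, or 2.52-fold, between that of the RP introns (2.77) and that of the 145 other introns (0.93), with 1.66 over all 255. Median retention of the 8 was 16.7% in LiCl only and 5.79% in no drug. It was 39.1% in LiCl only and 17.3% in no drug for the other introns, and 5.46% in LiCl only and 0.703% in no drug for the RP introns. These classes differ in intron length, and reads that touch an intron by a base raise short introns more. The part of length in the level differences between classes was not tested. Intron levels alone differed by 2.12 in *TUB3* (SE 0.32), 1.19 in *SAC6* (SE 0.34), 0.90 in *ACT1* (SE 0.16), 0.86 in *TUB1* (SE 0.86), 0.71 in *ARP2* (SE 0.39), 0.69 in *YSC84* (SE 0.39), 0.50 in *PFY1* (SE 0.22) and -0.01 in *COF1* (SE 0.23).

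Cycloheximide only against no drug asks the same of the other drug. *ACT1* was the single intron of the 8 that passed (0.78 on the log2 scale, SE 0.17, Fisher's exact test adjusted p = 1.52e-05), against 6.27% of all introns that were higher and 14.5% that were lower. Of the others, *TUB1* (1.25, SE 0.88), *YSC84* (0.92, SE 0.40), *TUB3* (0.73, SE 0.36), *SAC6* (0.65, SE 0.37) and *PFY1* (0.20, SE 0.23) had positive and *ARP2* (-0.06, SE 0.44) and *COF1* (-0.23, SE 0.23) negative differences that did not pass. The median was 0.69 in the 8 introns, -0.03 in the 145 other introns and -0.36 in the RP introns. Without the tubulin genes the median of the remaining 6 was 0.42.

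LiCl only against cycloheximide only compares the ends of the isobole, where growth inhibition was set to be equal. Again 7 of the 8 introns were higher in LiCl only, against 71% of all introns that were higher and 1.96% that were lower. Differences were 1.81 in *TUB3* (SE 0.21, Fisher's exact test adjusted p = 4.26e-20), 1.33 in *ARP2* (SE 0.32) and 1.21 in *PFY1* (SE 0.17), *SAC6* (SE 0.24) and *YSC84* (SE 0.28). They were smaller in *COF1* (0.77, SE 0.18) and *ACT1* (0.45, SE 0.11, Fisher's exact test adjusted p = 5.13e-05), and *TUB1* had -0.24 (SE 0.57, Fisher's exact test adjusted p = 0.72). The median was 1.21 in the 8 introns, 0.82 in the 145 others and 3.18 in the RP introns. All 3 comparisons share libraries, so their values are not independent.

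**Figure D3:**
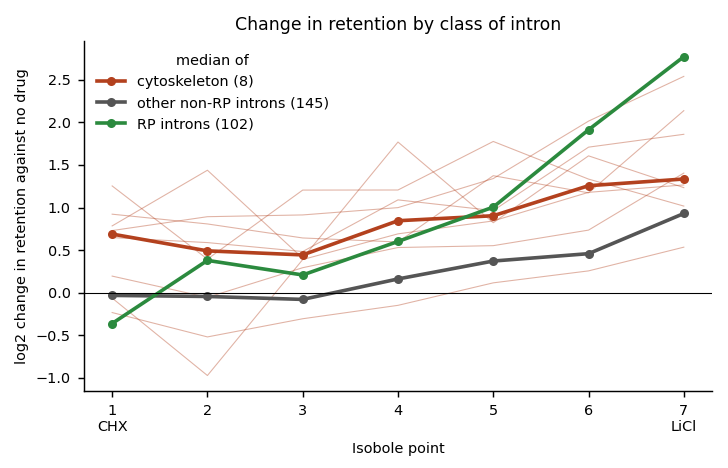
Change in retention against no drug (y axis, log2) at isobole points 1 (cycloheximide only, CHX) to 7 (LiCl only). Thick lines are medians of the 8 cytoskeleton introns, the 145 other introns outside RP genes and the 102 RP introns, and thin lines are the 8 single introns. The median of the 8 lies above 0 at every point, at 0.69 in cycloheximide only and 1.33 in LiCl only, and the RP median passes it from point 5 on.

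At the points between, the median difference of the 8 introns from no drug was 0.49, 0.44, 0.84, 0.90 and 1.26 at points 2 to 6. The medians of the 145 other introns were -0.04, -0.08, 0.16, 0.37 and 0.46 there, and those of the RP introns 0.38, 0.21, 0.60, 1.00 and 1.91. The median of the 8 was thus above that of the 145 others at every point, with all comparisons resting on the same no-drug library. From point 5 on, each of the 8 was above no drug, as were most introns. Of all 255 introns, 215 were above no drug at point 5, 216 at point 6 and 235 in LiCl only. Of the 145 others, 112 were above it at point 5, 107 at point 6 and 126 in LiCl only.

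From low to high, retention in no drug ran *TUB1*, *ACT1*, *COF1*, *PFY1*, *TUB3*, *ARP2*, *SAC6* and *YSC84*, and the intervals of all neighbours in this order overlapped. In LiCl only the order was *TUB1*, *COF1*, *ACT1*, *PFY1*, *ARP2*, *SAC6*, *TUB3* and *YSC84*, with gaps between the intervals of *ACT1* (5.69% to 6.89%) and *PFY1* (11.7% to 15.9%) and between those of *ARP2* (15.1% to 25.1%) and *SAC6* (28.1% to 41.3%). *TUB3* thus moved past *ARP2* and *SAC6*, although in LiCl only its interval (33.2% to 43.9%) overlapped that of *SAC6*. Both orders held when 49 bases were added to each intron length for reads that reach over its ends.

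Per kilobase, the CDS of *ACT1* had 753 CPM in LiCl only and 951 CPM in no drug, the highest of the 8 in both, while in cycloheximide only *COF1* (960.3) was above *ACT1* (878). *COF1* had 504 and *PFY1* 221 CPM per kilobase in LiCl only, against 738 and 413 in no drug. *YSC84* was the least abundant (23.2 in LiCl only and 63.4 in no drug). All 8 CDS levels were lower in LiCl only than in no drug, by -0.16 (*TUB1*), -0.34 (*ACT1*), -0.42 (*TUB3*), -0.55 (*COF1*), -0.55 (*ARP2*), -0.67 (*SAC6*), -0.90 (*PFY1*) and -1.45 (*YSC84*) on the log2 scale, with a median of 0.02 over 6389 genes. Scaled to total CDS counts instead, the median of all genes was 0.34 and *TUB1* was at 0.16, so that relative to all genes it was still lower in LiCl only. With no replicate these levels have no test. *YSC84* alone was more than 2-fold lower, against 6.51% of genes.

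Against cycloheximide only, *YSC84* (-1.16) and *PFY1* (-1.01) were more than 2-fold lower in LiCl only, against 7.22% of genes. Scaled to total CDS counts, *PFY1* was at -0.99 and no longer past 2-fold. *COF1* differed by -0.93, *SAC6* by -0.47, *ARP2* by -0.45, *ACT1* by -0.22, *TUB3* by -0.20 and *TUB1* by 0.30. Between cycloheximide only and no drug, *COF1* (0.38) and *PFY1* (0.11) were higher and the other 6 lower, down to -0.46 in *TUB1*, with a median of 0.04 over all genes. Scaled to total CDS counts, that median was 0.34 and the sign of 5 of the 6 turned, *TUB1* being the exception (*ACT1* was at 0.18), while their order relative to all genes stayed as it was. The alpha-tubulin *TUB1* was the only one of the 8 with a higher CDS level in LiCl only than in cycloheximide only.

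**Figure D4:**
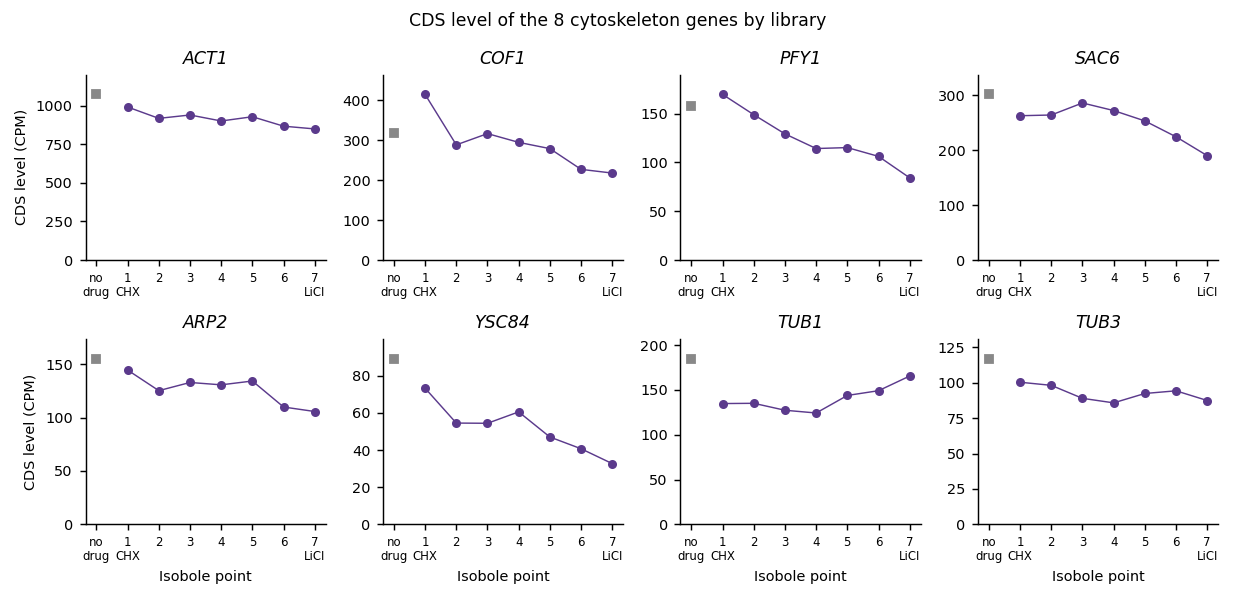
CDS level in CPM (y axis from 0, a scale of its own in each panel) of the 8 genes in the no-drug library (grey square) and at isobole points 1 (cycloheximide only, CHX) to 7 (LiCl only) (purple circles), 1 library each and no error shown. COF1, PFY1 and YSC84 fall along the isobole, to 218, 84.2 and 32.7 CPM in LiCl only.

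The wider pathway was described by CDS slopes of 80 other cytoskeleton genes in 4 lists, of which 14 rose, 12 fell and 54 did not pass the edgeR test, against the 16.2% of all genes that rose and the 15.1% that fell. In the list of the Arp2/3 complex, actin patch and actin regulators, 0 of 28 rose and 7 fell (median slope -0.05). Its steepest fall was that of *TWF1*, twinfilin, which binds actin monomers (slope -0.16, SE 0.03, edgeR adjusted p = 0.00257), with 19.7 CPM in LiCl only, 39.8 CPM in cycloheximide only and 38.2 CPM in no drug. Among 12 genes of actin cables and cytokinesis, 4 rose and 3 fell (median 0.04), with *MYO4*, a myosin that carries mRNA into the bud, at 0.09 (edgeR adjusted p = 0.00819) and *MLC2*, a myosin light chain, at -0.13 (edgeR adjusted p = 0.00793). *MYO4* had 108 CPM in LiCl only, 72.7 CPM in cycloheximide only and 75.8 CPM in no drug. *MLC2* had 14.7 CPM in LiCl only, 26.8 CPM in cycloheximide only and 16.1 CPM in no drug.

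Of 20 other tubulins and microtubule proteins, 8 rose and 1 fell (median 0.07). *PAC1*, which targets dynein to microtubule ends, rose most steeply (slope 0.16, edgeR adjusted p = 0.00176), and *DYN2*, a dynein light chain, fell (slope -0.12, edgeR adjusted p = 0.00863). In LiCl only, cycloheximide only and no drug, *PAC1* had 21.6, 11.2 and 9.64 CPM and *DYN2* 13.1, 24.1 and 21.5 CPM. Of 20 genes for the folding of actin and tubulin, 2 rose and 1 fell (median -0.01), with *ALF1*, an alpha-tubulin folding factor, at 0.15 (edgeR adjusted p = 0.0281) and *GIM5*, a prefoldin subunit, at -0.09 (edgeR adjusted p = 0.0122). In LiCl only, cycloheximide only and no drug, *ALF1* had 4.88, 2.79 and 4.89 CPM and *GIM5* 14.8, 21.8 and 13.8 CPM. Both genes were thus near their no-drug level in LiCl only and away from it in cycloheximide only. The median CDS slope over all 6498 genes was 0.00. Differences between the lists were not tested.

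Over the 7 isobole libraries, the introns whose change against no drug lay closest to the median of the 8 were those of *STO1*, a subunit of the nuclear cap-binding complex (root mean square difference 0.29 on the log2 scale), and the 5′ UTR introns of *BMH2* (0.30), a phosphoprotein-binding regulator, and *COX4* (0.32), a subunit of cytochrome c oxidase. *STO1* was at 0.42 in cycloheximide only and 1.71 in LiCl only.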

How the data were processed

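Ribodepleted RNA of 8 cultures, 1 library each, was sequenced as 50-base single-end reads. Per the labels and file headers, the authors aligned reads with TopHat to genome build R64 and counted them with featureCounts 1.6.2 over CDS, introns and 5′ UTR introns, with multi-mapping and multiply overlapping reads counted everywhere and no strand setting. The deposited values are raw counts, and 0 columns were left unmapped. Retention was computed from counts per base, and log2 changes with a pseudocount of 0.5. Introns were kept where intron counts averaged 5 or more and CDS counts 20 or more. Slopes over the 7 isobole libraries used edgeR 4.0.16 (limma 3.58.1, R 4.3.3): intron against CDS counts with a term per library, or intron or CDS counts with TMM scaling, the last after filterByExpr. Pairs of libraries were compared by Fisher's exact test (scipy 1.17.1). The edgeR and Fisher tests were checked on simulated data, and adjusted p-values under 0.05 were called. The simulated slopes were steeper than those of the 8 genes. For Fisher's test only counting error was simulated, so that check does not cover the spread between cultures. Alternatives were DESeq2 1.42.0, other scaling, pseudocounts of 1 and 0.1, no filter and leaving out each isobole library, and, chosen after seeing the data, a longer intron length. Apart from the 8 genes, the text names the 3 introns nearest to their median, the steepest rise and fall that passed in each list, and list genes with an intron. The 8 genes and the lists were chosen with earlier results of these data known. Python 3.11.15, numpy 2.4.6, pandas 2.3.3 and matplotlib 3.10.9 were used. Gene symbols came from RefSeq, which held 6014 of 6697 CDS features. Concentrations were not used here.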

Additional observations from a re-analysis of the deposited data

How the results depend on the processing

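The counts of slopes that passed changed most without point 7. When each isobole library was left out in turn, the number of the 8 introns with rising retention was 3 to 6, with 3 (*SAC6*, *ARP2* and *TUB3*) without point 7, and the number with a rising intron level was 0 to 3, with 1 without point 2 and 0 without point 7. The number of falling CDS levels was 3 throughout, and falling retention, falling intron levels and rising CDS levels stayed at 0. For these fits no share of all introns or genes is given, so the counts have no background. Directions turned only for slopes that had not passed, where the cause was not tested: *TUB1* retention was -0.0100 without point 2 (up to 0.1027 without point 7), and the intron level of *COF1* was -0.0207 without point 2 and -0.0174 without point 7 (up to 0.1051), that of *PFY1* -0.0018 without point 7 (up to 0.1111) and that of *YSC84* -0.0649 without point 7 (up to 0.1293), these 3 highest without point 1. In the comparisons of library pairs, the number of the 8 introns called was the same with no filter. A pseudocount does not enter that test, and with 1 or 0.1 the median change of LiCl only against no drug was 1.32 or 1.35. With 49 bases added to each intron length, retention in LiCl only was below its 95% interval in 6 genes, for example 23.7% in *SAC6*, while changes between libraries do not depend on the length. The retention of *TUB1* rests on 3 to 14 intron counts, and the other introns on at least 7. Depth limits small changes, and single cultures leave the spread between cultures unknown. No paired analysis was possible because each condition has 1 library and the labels give no replicate numbers.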

Other observations

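Among the 80 other cytoskeleton genes, 5 have an intron of their own, and 3 of these passed the count filter. Retention of the *DYN2* intron rose along the isobole (slope 0.21, SE 0.07, edgeR adjusted p = 0.0202), from 7 to 39 intron counts per library, while its CDS level fell. *GIM4*, a prefoldin subunit, had a retention slope of 0.00 (edgeR adjusted p = 0.970) and *CIN2*, a tubulin folding factor, 0.06 (edgeR adjusted p = 0.466). The introns of *LSB3*, the paralog of *YSC84*, and of *GIM5* had 0 to 11 and 0 to 8 counts per library and were not tested. The *LSB3* CDS had a slope of -0.06 (edgeR adjusted p = 0.0526).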
